A study of Mus musculus with 8 samples.

Results

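A group of 8 little-studied genes that were low in kidneys without c-Maf was examined: *Clec2h*, *Sectm1b*, *D630023F18Rik*, *C030005K06Rik*, *Fam151a*, *Aspa*, *Adap2*, and *Ppp1r16b*. They are 8 of the 55367 gene names in the count table, and they were chosen by how strongly or evenly their counts dropped in these same knockout kidneys. Their values by genotype are therefore a description without a test. RNA-Seq was performed on the whole kidney in 4 *c-Maf* ΔTAM mice, which the labels call Maf conditional KO, and 4 *c-Maf fl/fl* mice, which the labels call Maf flox/flox; they are called knockout and control mice below. All mice were C57BL/6J, their age was 8 weeks after birth, and all carried *loxP* sites around *c-Maf*; the *c-Maf* ΔTAM mice also carried *CAG-Cre-ER* TM, a Cre that tamoxifen (TAM) activates. Both groups were examined at TAM(10d), which is 10 days after TAM injection, and control mice were given TAM too. The CAG promoter acts in most cell types, so deletion was not limited to the kidney or to a kind of kidney cell, and the sexes are not given. Libraries of knockout mice 1 to 4 held 22990257, 18896014, 17188052, and 16649129 counts, and libraries of control mice 1 to 4 held 18696580, 20890209, 20371115, and 19897769. Genes of the mitochondrial genome took 32.3% of the counts of knockout mouse 1, more than in any other mouse (17.1% to 25.5%). Levels are given as CPM, which are counts scaled to a common library size with TMM factors. Each log2 fold change sets knockout over control mice and comes from edgeR's quasi-likelihood fit of the 20149 genes that passed a filter on low counts.

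c-Maf is a large Maf transcription factor that binds Maf recognition elements (MAREs) through its basic leucine zipper, and in the adult kidney it is found in the proximal tubule. The genes examined here do unrelated work: *Clec2h* and *Sectm1b* code for proteins that bind receptors of lymphocytes, *Aspa* for an enzyme, and *Adap2* and *Ppp1r16b* for regulators of a small GTPase and of a phosphatase. *Fam151a*, *D630023F18Rik*, and the noncoding *C030005K06Rik* have little or no known function in the kidney.

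The targeted gene, *Maf*, was at 9.06, 34.5, 29.6, and 10.1 CPM in knockout mice 1 to 4. In control mice 1 to 4 it was at 379.9, 342, 305, and 351 CPM. The 2 genotypes did not overlap, which fits the labels, and residual *Maf* was lowest in knockout mice 1 and 4.

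All 8 members passed the filter on low counts. *Clec2h*, *Sectm1b*, and *D630023F18Rik* passed it through the control mice, because they had fewer than 10 counts in at least 1 knockout mouse. At a Benjamini-Hochberg adjusted *P* under 0.05, 8 of 8 members were lower in knockout mice, against 1.58% of all genes tested. In 8 of 8, each knockout mouse was below each control mouse, against 5.62% of all genes tested. Both counts follow from how the members were selected on these values, and nothing is read from them. In whole kidney RNA, fewer cells of a type and less RNA per cell cannot be told apart.

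*Clec2h* codes for Clr-f, a C-type lectin-related protein of gut and kidney epithelium that binds a receptor of the NKR-P1 family. The gene lies on chromosome 6 from 128662385 to 128677374 (GRCm38, plus strand) in 7 exon blocks. Its level was 0.153, 1.44, 0.555, and 0.162 CPM in knockout mice 1 to 4, from 3, 28, 10, and 3 counts. In control mice 1 to 4, it was 29.3, 31.3, 22.2, and 45.9 CPM. The gene was thus close to the limit of counting in knockout mice 1 and 4, and the lowest control mouse was 15.4-fold above the highest knockout mouse. The mean of knockout mice was 1.79% of the control mean, with a log2 fold change of -5.78 (SE 0.551). Without knockout mouse 2, which held most of the remaining counts, it was -6.78. Of its 36-base sequences, 4.26% also occur in transcripts of other genes, mainly *Clec2i*.

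*Sectm1b* codes for a transmembrane protein that binds CD7 on T and NK cells. It lies on the minus strand of chromosome 11, from 121053458 to 121063569. Its level was 0.254, 0.668, 1.22, and 0 CPM in knockout mice 1 to 4, from 5, 13, 22, and 0 counts. The 0 in mouse 4 allows a level of up to 0.162 CPM (3 counts, which covers counting error alone). In control mice 1 to 4, *Sectm1b* was at 20.3, 22.8, 34.0, and 29.8 CPM, far above every knockout mouse. The log2 fold change was -5.64 (SE 0.568), and -6.39 without knockout mouse 3, which held most of the remaining counts. The knockout mean was 2.00% of the control mean.

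The paralogs of *Clec2h* and *Sectm1b* were tested, since their values had no part in the choice of the members. They were listed, however, with earlier results of these data known. *Sectm1a*, whose protein is a ligand of GITR, lies 3.84 kb from *Sectm1b*. It had 4, 0, 2, and 1 counts in knockout mice 1 to 4 and 23, 19, 40, and 40 counts in control mice 1 to 4. It was weakly expressed, at 1.59 ± 0.710 CPM (SD, n = 4) in control mice and 0.0921 ± 0.0870 CPM in knockout mice, and its groups did not overlap. In edgeR's quasi-likelihood test, *Sectm1a* was lower in knockout mice with a log2 fold change of -4.00 (SE 0.612, adjusted *P* = 0.0051), lower in 4 of 4 mice. It passed the filter on low counts through the control mice alone, as *Sectm1b* did, and could not be tested with at least 10 counts in every mouse. No 36-base sequence is shared between transcripts of *Sectm1a* and other genes. The adjusted *P* of *Sectm1a* was below 0.05 in all 8 fits that each left out a mouse and in the 10 other alternatives that could test it, with log2 fold changes from -4.72 (without knockout mouse 1) to -3.12 (quantile normalization). *Clec2d*, in contrast, was at 29.8 to 57.7 CPM in knockout and 36.5 to 54.3 CPM in control mice, with overlapping groups and a log2 fold change of 0.053 (SE 0.195, adjusted *P* = 0.938 in edgeR's test). It was the 1 other Clec2 gene that passed the filter: *Clec2e*, *Clec2f*, *Clec2g*, *Clec2i*, *Clec2j*, and *Clec2l* had at most 21 counts in any mouse and *Clec2m* had 0.

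The receptors of these ligands are made by lymphocytes and were scarce in whole kidney. Of the NKR-P1 genes *Klrb1*, *Klrb1a*, *Klrb1b*, *Klrb1c*, and *Klrb1f*, 0 passed the filter, with at most 10 counts in any mouse. *Cd7* also failed it, with at most 6 counts. *Tnfrsf18*, which codes for GITR, was at 3.09 ± 0.757 CPM in knockout and 2.01 ± 0.133 CPM in control mice (SD, n = 4). Its groups did not overlap (2.41 to 4.16 CPM in knockout and 1.81 to 2.11 CPM in control mice), and its *P* in edgeR's test was 0.0166 unadjusted and 0.223 adjusted. Among the lymphocyte markers, 4 of 10 were measurable. Of those, 0 passed in edgeR's quasi-likelihood test, against 1.58% (lower) and 0.586% (higher) of all genes tested. At an unadjusted *P* under 0.05 there were also 0, as with edgeR's exact test, DESeq2, or limma.

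*Aspa* codes for aspartoacylase, which cleaves N-acetylaspartate to acetate and aspartate and whose loss causes Canavan disease in the brain. It lies on the minus strand of chromosome 11, from 73304992 to 73329596. Its level was 22.4, 21.6, 21.8, and 17.9 CPM in knockout mice 1 to 4 and 66.2, 68.2, 80.4, and 81.6 CPM in control mice 1 to 4. The values were even within genotypes and did not overlap, with knockout mouse 4 apart below the others of its group. The knockout mean was 28.3% of the control mean, a log2 fold change of -1.82 (SE 0.106).

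Of the aminoacylases listed with it, *Acy3* is its paralog, while *Acy1* belongs to another protein family. Neither passed edgeR's quasi-likelihood test. *Acy1* had a log2 fold change of -0.22 (SE 0.172, adjusted *P* = 0.632). With *Xist* level as a covariate it was -0.35 and passed (adjusted *P* = 0.0494); over all alternatives its adjusted *P* ran from 0.0494 to 0.864. *Acy3*, whose enzyme acts on mercapturic acids in the proximal tubule, was at 892, 243, 225, and 201 CPM in knockout mice and 273, 324, 799.6, and 999 CPM in control mice. Its high values were those of the 3 mice with low *Xist* (below), in both genotypes. Its log2 fold change was -0.62 (SE 0.692, adjusted *P* = 0.766). Over the 5 mice with high *Xist*, it was -0.42 and passed (adjusted *P* = 0.0263); over all alternatives, the adjusted *P* ran from 0.0263 to 0.935.

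Around *Aspa*, 20 of 21 listed genes were tested. The list joins genes of N-acetylaspartate breakdown and transport and of acetate use with the *Nat8* family, whose members other than *Nat8l* acetylate other substrates. *Nat8l*, the gene of the N-acetylaspartate synthase, was the 1 gene not tested, with at most 47 counts in a mouse. Of the tested genes, the *Nat8* family included, 2 were lower and 0 higher in knockout mice, against 1.58% and 0.586% of all genes, and their median log2 fold change was 0.14 against 0.0027 for all genes. *Folh1*, the peptidase that frees N-acetylaspartate from its glutamate dipeptide, was at 13.6, 40.5, 28.3, and 35.8 CPM in knockout mice and 104, 101, 90.3, and 77.2 CPM in control mice. Its groups did not overlap, and its log2 fold change was -1.66 (SE 0.311, adjusted *P* = 0.0439). *Acss1*, which makes acetyl-CoA from acetate in mitochondria, was at 74.8, 164, 133, and 128 CPM against 321, 315, 267, and 231 CPM. Its log2 fold change was -1.18 (SE 0.218, adjusted *P* = 0.0261), and knockout mouse 1 was the lowest for both genes. *Slc13a3*, the dicarboxylate carrier that takes up N-acetylaspartate, had a log2 fold change of -0.87 and an adjusted *P* of 0.0763, without overlap between groups. *Slc13a3* passed with edgeR's exact test, DESeq2, *Xist* as a covariate, over the 5 mice with high *Xist*, or without knockout mouse 1, and over all alternatives its adjusted *P* ran from 7.56e-06 to 0.292.

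The calls of *Folh1* and *Acss1* were close to the threshold, and both were lost with quantile normalization and with genes kept from 1 count on. When each mouse was left out in turn, *Folh1* passed in 1 of 8 fits (without knockout mouse 1), with adjusted *P* values from 0.000337 to 0.141. *Acss1* passed in 3 of 8 fits (without knockout mouse 1 or 2 or control mouse 4), with adjusted *P* values from 0.00196 to 0.0808. The 0 genes called higher compare with 4 at an unadjusted *P* under 0.05, 1 with edgeR's exact test, 1 with DESeq2, and 0 with limma; the gene called by the exact test and DESeq2 was *Nat8f3*. With *Xist* as a covariate, 5 genes of this list were higher and 3 lower, and so were 5 and 3 over the 5 mice with high *Xist*. Over all genes, these fits called 601 higher and 905 lower, and 322 higher and 467 lower, against 118 and 318 without either. *Nat8f3*, *Nat8f5*, *Nat8f6*, and *Acss2* were higher in both, *Nat8f2* with the covariate alone, and *Nat8* over the high-*Xist* mice alone; these genes were named after their values were seen.

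*Adap2* codes for a GTPase-activating protein of Arf6 whose PH domains bind phosphoinositides at the plasma membrane. It lies on the plus strand of chromosome 11, from 80154105 to 80178958. Its level was 14.4, 15.4, 18.2, and 16.2 CPM in knockout mice 1 to 4 and 47.2, 46.2, 56.7, and 56.1 CPM in control mice 1 to 4. The groups were far apart compared with their spread (coefficients of variation 9.95% and 10.9%), and the log2 fold change was -1.68 (SE 0.108). Over the 5 mice with high *Xist*, it was -1.49. Its paralog *Adap1* was at 21.6 ± 2.62 and 21.3 ± 5.58 CPM (SD, n = 4), with a log2 fold change of 0.016 (SE 0.181, adjusted *P* = 0.981).

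Among 39 tested Arf GTPases and their activating and exchange proteins, 1 was lower and 0 were higher, against 1.58% and 0.586% of all genes tested, so that both counts are near the share in all genes. The median log2 fold change was -0.056. The 0 higher genes compare with 1 at an unadjusted *P* under 0.05 and 0 with edgeR's exact test, DESeq2, or limma. The lower gene was *Smap2*, an Arf1 GTPase-activating protein of the trans-Golgi network, at 25.4, 22.1, 23.5, and 23.6 CPM in knockout and 30.3, 31.0, 34.1, and 39.9 CPM in control mice. Its log2 fold change was -0.51 (SE 0.105, adjusted *P* = 0.0264). It passed in 3 of 8 fits that each left out a mouse (without knockout mouse 1 or control mouse 1 or 2), with adjusted *P* values from 0.0268 to 0.0974. *Arf6* itself was at 54.3 ± 4.37 and 66.5 ± 4.54 CPM (SD, n = 4), with an adjusted *P* of 0.123 (0.0369 with *Xist* as a covariate, and up to 0.312 over all alternatives).

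*Ppp1r16b* codes for TIMAP, a membrane-bound regulatory subunit of protein phosphatase 1 that is known from endothelial cells, where moesin is among the proteins dephosphorylated with its help. It lies on the plus strand of chromosome 2, from 158665398 to 158766334, in 13 exon blocks. Its level was 50.3, 63.1, 53.9, and 50.4 CPM in knockout mice 1 to 4 and 164, 169, 188, and 165 CPM in control mice 1 to 4. This was the member with the highest counts, from 931 to 3738 per mouse. The log2 fold change was -1.66 (SE 0.0966), and the knockout mean was 31.7% of the control mean. Its paralog *Ppp1r16a* was at 46.3 ± 1.92 and 49.8 ± 6.89 CPM (SD, n = 4), with an adjusted *P* of 0.705.

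Of 17 tested subunits and partners of protein phosphatase 1, 1 was lower and 0 were higher (1 at an unadjusted *P* under 0.05, and 0 with edgeR's exact test, DESeq2, or limma), against 1.58% and 0.586% of all genes tested. Nothing is read from a single gene in so short a list. The median log2 fold change was -0.083. The lower gene was *Ezr*, which codes for ezrin, the linker of membrane and actin in the brush border, at 241, 297, 308, and 305 CPM in knockout and 438, 430.3, 341, and 423 CPM in control mice. Its log2 fold change was -0.50 (SE 0.112, adjusted *P* = 0.0398). It passed in 1 of 8 fits that each left out a mouse (without control mouse 3), with adjusted *P* values from 0.0275 to 0.111. It did not pass with upper-quartile factors or quantile normalization. *Msn*, the gene of moesin, was at 209 ± 16.6 and 178 ± 12.5 CPM (SD, n = 4; adjusted *P* = 0.264). It passed as higher with *Xist* as a covariate (0.0315), and over all alternatives its adjusted *P* ran up to 0.547. Endothelial markers, as a list, were at a summed 533 ± 33.9 CPM in knockout and 588 ± 39.6 CPM in control mice. Of these markers, 1 of 8 was lower, against 1.58% of all genes tested. This was *Kdr*, with a log2 fold change of -0.37 (adjusted *P* = 0.0450), which did not overlap between groups and passed in 0 of 8 fits that each left out a mouse (adjusted *P* from 0.0552 to 0.138). The most abundant of them, *Plvap*, had a mean of 152 CPM, and none was at 0. Their part in the drop of *Ppp1r16b* was not tested.

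*Fam151a* lies on the plus strand of chromosome 4, from 106733889 to 106748292. Its level was 3.71, 4.88, 3.22, and 2.38 CPM in knockout mice 1 to 4 and 32.3, 30.5, 37.4, and 41.0 CPM in control mice 1 to 4, without overlap. The knockout mean was 10.1% of the control mean, with a log2 fold change of -3.31 (SE 0.192). The gene shares 65.7% of its exonic bases with *Acot11* on the opposite strand. Reads on shared exons were not counted, so its counts come from the remaining 660 bases and its value is uncertain. *Acot11*, an acyl-CoA thioesterase gene, was at 31.4 ± 1.07 CPM in knockout and 28.6 ± 2.88 CPM in control mice (SD, n = 4; log2 fold change 0.14, adjusted *P* = 0.568), with overlapping groups. The paralog *Fam151b* was at 3.41 ± 0.716 and 3.06 ± 0.527 CPM (SD, n = 4; adjusted *P* = 0.807).

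*D630023F18Rik*, an uncharacterized protein-coding gene on chromosome 1 from 65105285 to 65123214 (minus strand), was at 0.102, 0.719, 0.444, and 0.379 CPM in knockout mice 1 to 4, from 2, 14, 8, and 7 counts. In control mice 1 to 4 it was at 21.7, 17.7, 16.1, and 14.8 CPM. The gap between the groups, 20.6-fold from the highest knockout to the lowest control mouse, was the widest among the 8 members. The log2 fold change was -5.40 (SE 0.319). It shares 14.4% of its exonic bases with *Gm28845*, which had 0 counts.

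*C030005K06Rik*, annotated as a noncoding transcript, lies on the minus strand of chromosome 18, from 50042730 to 50053844, within the span of *Tnfaip8*. It was at 6.11, 5.80, 5.43, and 5.58 CPM in knockout mice 1 to 4 and 24.6, 32.1, 40.4, and 33.5 CPM in control mice 1 to 4. The knockout values were the most even of any member, with a coefficient of variation of 5.11% against 19.9% in control mice. At 98 to 120 counts per knockout mouse, that spread is below counting error. Evenness was also among the grounds for choosing the members, so nothing is read from this rank. The log2 fold change was -2.51 (SE 0.148). *Tnfaip8*, which codes for a lipid-binding regulator of cell survival, is transcribed from the opposite strand and shares 48.7% of the exonic bases of *C030005K06Rik*. Because strand was not used in counting, reads of the 2 genes outside shared exons cannot be told apart, and the value of *C030005K06Rik* is uncertain.

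**Figure D1:**
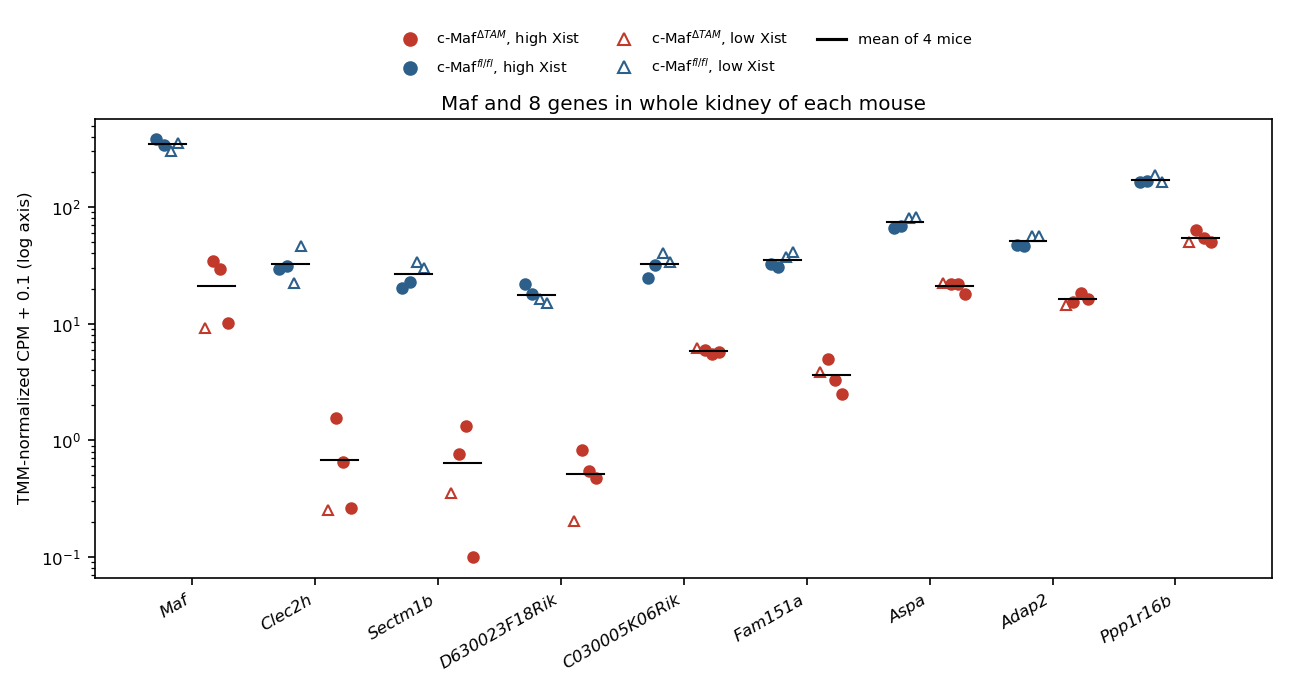
Level of *Maf* and of the 8 genes in each mouse, as TMM-normalized CPM plus 0.1 on a log axis. Red marks *c-Maf* ΔTAM and blue *c-Maf fl/fl* mice, filled circles mice with high *Xist* and open triangles mice with low *Xist*, and black lines the mean of 4 mice; the groups do not overlap for any of the 9 genes, and *Clec2h*, *Sectm1b*, and *D630023F18Rik* reach below 1 CPM in *c-Maf* ΔTAM mice.

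The members differed in how far they dropped. *Clec2h*, *Sectm1b*, and *D630023F18Rik* remained at 1.79% to 2.34% of their control means and were ranked 3, 4, and 5 from the lowest log2 fold change among all genes tested. *Fam151a* (10.1%, rank 28) and *C030005K06Rik* (17.5%, rank 49) followed. *Aspa*, *Adap2*, and *Ppp1r16b* remained at 28.3% to 31.7% and were ranked 85, 96, and 97. Levels were compared per kilobase of exon that is not shared with another gene, since reads on shared exons were not counted. In control mice, *Fam151a* was highest at 53.5 ± 7.26 CPM per kb, from 660 bases, followed by *Adap2* at 31.4 ± 3.42 CPM per kb (SD, n = 4). *C030005K06Rik* (23.6 ± 4.69) and *Ppp1r16b* (19.4 ± 1.28) differed by less than the SD of the former. *Aspa* (12.4 ± 1.35) and *Clec2h* (11.9 ± 3.67) differed by less than their SD, and so did *Clec2h* and *Sectm1b* (9.61 ± 2.28). *D630023F18Rik* was lowest at 7.70 ± 1.30, below *Sectm1b* by less than the SD of *Sectm1b* and by more than its own. For *Fam151a* and *C030005K06Rik*, these levels are uncertain because of their partners on the opposite strand.

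The remaining level in single knockout mice could be set beside residual *Maf*. *Clec2h*, *D630023F18Rik*, and *Ppp1r16b*, like *Maf*, were highest in mouse 2. The order of the other mice was mostly within counting error: *Clec2h* had 3 counts in both mice 1 and 4, *D630023F18Rik* had 8 and 7 counts in mice 3 and 4, and *Ppp1r16b* differed by less than counting error between mice 1 and 4. *Sectm1b* was lowest in mouse 4 and highest in mouse 3, *Fam151a* lowest in mouse 4 and highest in mouse 2, and *Aspa* lowest in mouse 4 and highest in mouse 1. *Adap2* and *C030005K06Rik* had orders of their own. With 4 mice and these differences, no relation to residual *Maf* was tested.

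The *Xist* transcript, which is made from the inactive X chromosome of females, was at 946 to 1011 CPM in knockout mice 2, 3, and 4 and control mice 1 and 2, and at 0.102 to 1.29 CPM in knockout mouse 1 and control mice 3 and 4. *Xist* level (above or below 10 CPM) was added to the fit as a term beside genotype. These levels were taken from the counts and are not groups that the labels give. In edgeR's quasi-likelihood test, 2462 of 20149 genes (12.2%) differed by *Xist* level, and 0 of 8 members did, nor in any of 11 alternative fits of this term. Since a drop that was even over the mice was among the grounds for choosing the members, genes that vary with *Xist* were less likely to be chosen, and nothing is read from this count. At an unadjusted *P* under 0.05, 3 members differed, against 25.4% of all genes tested: *D630023F18Rik* was higher in the high-*Xist* mice by 0.48 on the log2 scale (SE 0.213, adjusted *P* = 0.161), and *C030005K06Rik* (-0.30, SE 0.124, adjusted *P* = 0.138) and *Aspa* (-0.22, SE 0.0858, adjusted *P* = 0.116) were lower. The control mice alone held 2 mice at each *Xist* level. Among them, *Sectm1b*, *C030005K06Rik*, *Fam151a*, *Aspa*, and *Adap2* (5 of 8 members, against 25.4% of all genes tested) were higher in both low-*Xist* mice than in both high-*Xist* mice. *D630023F18Rik* (1 of 8, against 25.3%) was lower in both. For *Adap2*, for example, the means were 56.4 and 46.7 CPM. These differences between control mice were not tested by themselves, with 2 mice a side.

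The genes next to the members were tested to see whether the drop stopped at the member. Within 100 kb of the 8 members, 28 other genes were tested, and 4 of these were lower and 0 higher in knockout mice, against 1.58% and 0.586% of all genes. The 0 higher genes compare with 0 at an unadjusted *P* under 0.05 and 0 with edgeR's exact test, DESeq2, or limma. The median log2 fold change of the 28 was -0.16. The 4 genes lay beside or over different members, and *Tnfaip8* and *Adap2os* overlap theirs. *Sectm1a* is described above. *Idh1*, which codes for the cytosolic isocitrate dehydrogenase that makes NADPH, lies 35.4 kb from *D630023F18Rik* and was at 81.4, 117, 127, and 86.8 CPM in knockout and 301, 317, 294, and 329.9 CPM in control mice. Its groups did not overlap, and its log2 fold change was -1.59 (SE 0.139, adjusted *P* = 9.49e-05). *Tnfaip8*, which spans *C030005K06Rik*, was at 77.8, 76.7, 74.9, and 49.6 CPM against 175, 177, 275, and 238 CPM. The log2 fold change of *Tnfaip8* was -1.63 (SE 0.186, adjusted *P* = 0.00127). Because strand was not used, the counts of *Tnfaip8* can hold reads of *C030005K06Rik*. *Adap2os*, the antisense transcript of *Adap2*, was at 2.19, 3.18, 1.89, and 1.62 CPM against 3.53, 4.65, 4.92, and 6.51 CPM, with a log2 fold change of -1.13 (SE 0.256, adjusted *P* = 0.0431). It shares 8.18% of the exonic bases of *Adap2*, and since strand was not used its reads cannot be told apart from those of unspliced *Adap2* RNA. *Idh1* and *Tnfaip8* passed in 8 of 8 fits that each left out a mouse, and *Adap2os* in 2 (without knockout mouse 2 or control mouse 1), with adjusted *P* values from 0.0313 to 0.149. *Adap2os* also did not pass over the 5 mice with high *Xist* alone.

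The other nearest tested genes on either side did not pass edgeR's quasi-likelihood test. Each is given with its log2 fold change and adjusted *P*. *Clec2h* has a single tested gene within 100 kb, *Gm5884* (log2 fold change -0.082, adjusted *P* = 0.746), with *BC064078* next on the other side, 316 kb away (0.21, 0.761). *Csnk1d* (-0.0077, 0.978) lies on the other side of *Sectm1b*. *Gm11793*, 42.6 kb from *Sectm1b* on the side of *Sectm1a*, was at 0.422 ± 0.287 and 1.30 ± 0.490 CPM (SD, n = 4) without overlap (-1.59, 0.139); it passed with edgeR's exact test alone (0.0456), and over all alternatives its adjusted *P* ran up to 0.314. It was named after its values were seen. Beside *D630023F18Rik* was *Gm7329* (-0.24, 0.893), on the side away from *Idh1*. *Dmxl1* (0.023, 0.941) and *Hsd17b4* (-0.25, 0.218) flank *C030005K06Rik*, and *Mroh7* (0.13, 0.882) lies next to *Fam151a*. The next tested gene on the other side of *Fam151a*, *Ssbp3*, is 162 kb away (0.25, 0.171). *Ssbp3* was at 48.9 to 58.7 CPM in knockout and 43.8 to 48.3 CPM in control mice, without overlap, and its adjusted *P* ran from 0.058 to 0.383 over all alternatives. Beside *Aspa*, the cation channel gene *Trpv3*, 4.63 kb away, was at 2.09 ± 0.273 and 3.91 ± 0.828 CPM (SD, n = 4) without overlap between groups. Its log2 fold change was -0.91 (SE 0.216, adjusted *P* = 0.0558), and it passed with edgeR's exact test, DESeq2, limma, genes kept from 1 count on, *Xist* as a covariate, or without control mouse 4 (0.0353). Over all alternatives its adjusted *P* ran from 0.00735 to 0.179. *Gm12328* (-0.34, 0.802) is the next tested gene on the other side of *Aspa*, 442 kb away. *Tefm* (-0.30, 0.431) and *Rnf135* (-0.48, 0.117; 0.0461 with DESeq2, and up to 0.427 over all alternatives; without overlap between groups) flank *Adap2*, and *Actr5* (-0.14, 0.744) and *Dhx35* (0.0086, 0.982) flank *Ppp1r16b*.

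**Figure D2:**
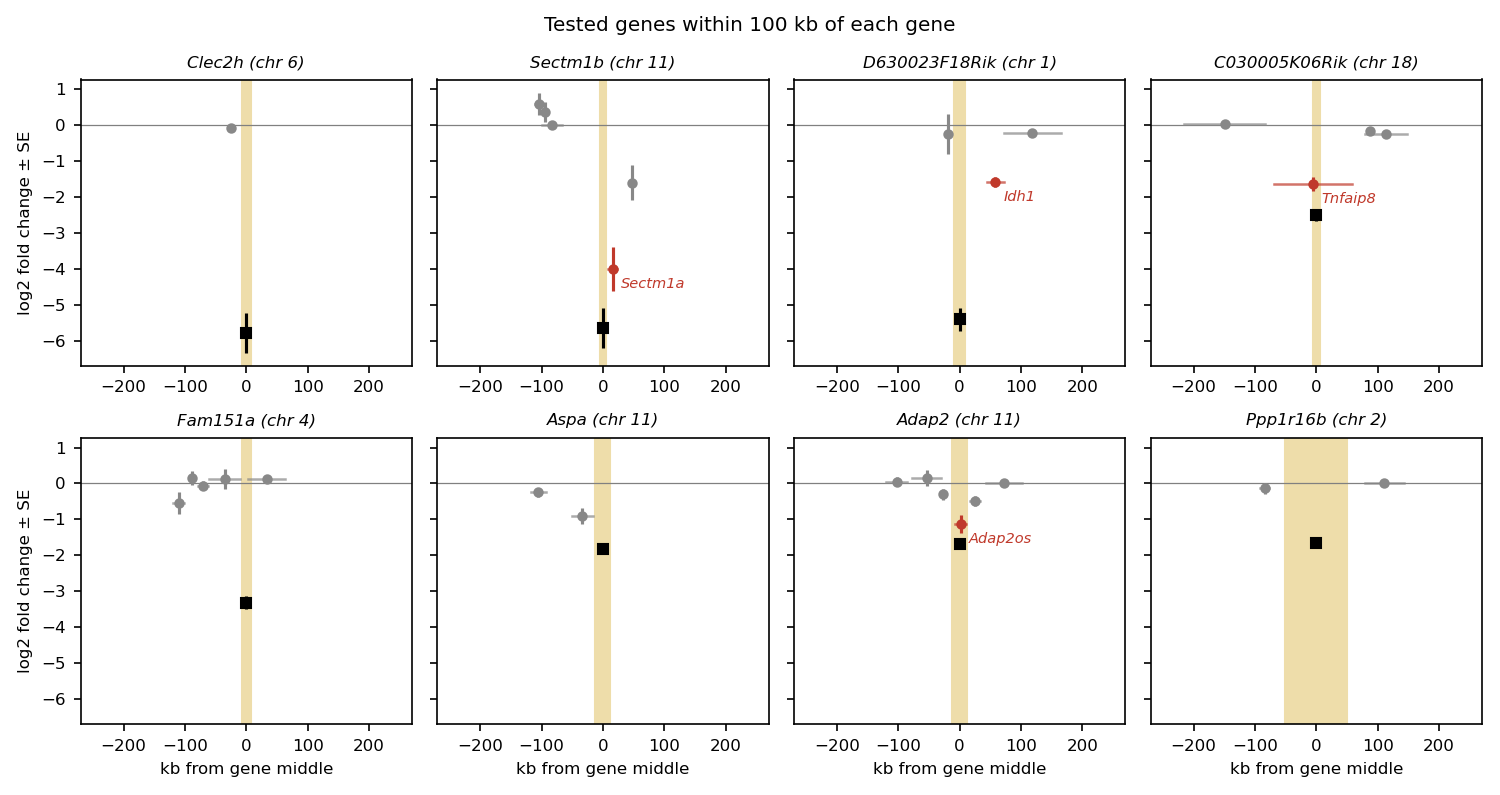
Log2 fold change (*c-Maf* ΔTAM over *c-Maf fl/fl* mice, n = 4 each, bars are SE) of each of the 8 genes (black square, its span shaded) and of the tested genes within 100 kb (circles at the middle of the gene, horizontal lines its span). The horizontal axis gives the distance in kb from the middle of the gene; red marks the 4 genes with an adjusted *P* under 0.05 (*Sectm1a*, *Idh1*, *Tnfaip8*, and *Adap2os*), and gray the others.

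Whole kidney was checked by its markers. Markers of the proximal tubule, thick ascending limb, distal convoluted tubule, collecting duct, and podocyte were measured, with *Lrp2* at a mean of 7170 CPM as the most abundant. The collecting duct marker *Avpr2* failed the filter, with at most 10 counts in a mouse. Since the labels' extraction text names liver, hepatocyte genes were examined too. *Alb* was at 1.37 ± 0.830 CPM in knockout and 5.65 ± 3.06 CPM in control mice (SD, n = 4), and *Apoa1* had at most 32 counts in a mouse. The hepatocyte list as a whole was not low and summed to 1021 ± 550 and 1013 ± 317 CPM (SD, n = 4), led by *Apob* with a mean of 615 CPM. *Cyp2e1* was at 1398 CPM in knockout mouse 1 and at 433 and 606 CPM in control mice 3 and 4, the 3 mice with low *Xist*, against 47.2 to 134 CPM in the others. The part of the *Xist* level in this sum was not tested. In this list 1 of 7 genes was lower, against 1.58% of all genes tested. This was *Ttr* (log2 fold change -5.02, SE 0.678, adjusted *P* = 0.0152), without overlap. It was -5.95 without knockout mouse 2 and -4.29 over the 5 mice with high *Xist*. *Ttr* passed in 6 of 8 fits that each left out a mouse (not without knockout mouse 3 or 4), with adjusted *P* values from 0.00962 to 0.0752. The median log2 fold change of the list was 0.54. *Serpina1a* (1.99, adjusted *P* = 0.286) and *Serpina1b* (2.02, adjusted *P* = 0.223, without overlap), which code for forms of alpha-1-antitrypsin, lay on the other side of 0. Of the 0 genes called higher, 2 were so at an unadjusted *P* under 0.05, 1 with edgeR's exact test (*Serpina1a*), and 0 with DESeq2 or limma, while *Alb* was also called lower by the exact test and DESeq2. Over the 5 mice with high *Xist*, 2 genes of the list were lower and 3 higher, and with *Xist* as a covariate 2 were lower and 2 higher. Over all genes, the same fits called 467 lower and 322 higher, and 905 lower and 601 higher. Beside the members, 3 of 10 markers of proximal tubule segments S1 and S2 were lower in knockout mice and 0 higher (0 at an unadjusted *P* under 0.05, and 0 with edgeR's exact test, DESeq2, or limma), against 1.58% and 0.586% of all genes tested. The median log2 fold change of these markers was -0.42. The lower ones were the phosphate carrier *Slc34a1* (-1.23, adjusted *P* = 0.000217), the lactate carrier *Slc5a12* (-1.71, adjusted *P* = 0.000349), and the bicarbonate carrier *Slc4a4* (-0.99, adjusted *P* = 0.000113). The list summed to 10114, 13792, 13373, and 12251 CPM in knockout mice 1 to 4 and 15838, 18124, 17276, and 17511 CPM in control mice 1 to 4. None of its markers was at 0, and all 10 had a log2 fold change below 0. Of those that did not pass, the organic anion transporter *Slc22a8* (-1.07, adjusted *P* = 0.528) did not overlap between groups and passed over the 5 mice with high *Xist* (1.1e-05; up to 0.673 over all alternatives). Its relative *Slc22a6* (-0.49, adjusted *P* = 0.605), the scaffold gene *Pdzk1* (-0.35, adjusted *P* = 0.433), and the tubule factor *Hnf4a* (-0.20, adjusted *P* = 0.386) also did not pass. The endocytic receptor genes *Lrp2* (-0.17, adjusted *P* = 0.719) and *Cubn* (-0.034, adjusted *P* = 0.912) did not pass either. Both turned above 0 with quantile normalization and *Cubn* also with upper-quartile factors. By qPCR in more mice per group, the paper reports lower expression of both genes in knockout mice.

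Other cell types were measured beside the members. The macrophage list, for cells in which c-Maf is also made, had 0 of 9 markers past the threshold. Of all genes tested, 1.58% were lower and 0.586% higher. In this list, 2 markers were higher at an unadjusted *P* under 0.05, and 0 passed with edgeR's exact test, DESeq2, or limma. Its median log2 fold change was 0.19. The list summed to 113 to 125 CPM in knockout and 98.4 to 111 CPM in control mice, without overlap. Of the other lists, 0 of 8 tested genes of proximal tubule segment S3, 0 of 6 of the thick ascending limb, 0 of 5 of the distal convoluted tubule, 0 of 7 of the collecting duct, 0 of 6 of the podocyte, 0 of 7 of fibroblasts and mural cells, and 0 of 7 of tubular injury passed edgeR's quasi-likelihood test. At an unadjusted *P* under 0.05 these were 1, 0, 2, 0, 0, 0, and 1 genes in the same order. Other tools called *Slc8a1* (edgeR's exact test, DESeq2, and limma) and *Pvalb* (DESeq2), both of the distal convoluted tubule. With *Xist* as a covariate or over the 5 mice with high *Xist*, *Slc5a8* of segment S3 was called higher (adjusted *P* from 0.000301 to 0.948 over all alternatives) and *Spp1* of tubular injury lower (8.29e-05 to 0.76). The covariate alone also called *Slc7a13* of segment S3 lower (0.0119 to 0.944), and *Slc8a1* and *Pvalb* as above. Median log2 fold changes were -0.32, 0.055, 0.031, 0.021, 0.058, 0.094, and 0.040 in that order. Some of these lists stood apart in the 3 mice with low *Xist*. The genes of segment S3 summed to 1500.4 CPM in knockout mouse 1 and 1520.3 and 1444 CPM in control mice 3 and 4, against 548 to 645 CPM in the other mice of both genotypes. Within that list, *Acsm3* was at 545, 387, and 436 CPM in the same 3 mice against 2.03 to 6.82 CPM in the others, *Cyp7b1* at 97.8, 170.3, and 123 CPM against 1.66 to 2.55 CPM, and *Slc7a13* at 204, 264, and 324 CPM against 0.411 to 1.08 CPM. With 1 such mouse among the knockout and 2 among the control mice, the median of segment S3 by genotype holds this split too. The sums for the distal convoluted tubule (1658 to 1849.9 CPM against 2045 to 2786 CPM), the collecting duct (368 to 394 CPM against 438 to 569 CPM), and the podocyte (391 to 414 CPM against 498 to 541 CPM) were lowest in these 3 mice. *Acsm3* and *Cyp7b1* were named after their values were seen, and the part of the *Xist* level in these sums was not tested. The part of any of these cell types in the drop of the members was not tested.

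Genes whose pattern over the 8 mice was most like that of the members were ranked by Pearson's *r* with the mean z score of the members, among non-members with a mean of at least 1 CPM. The first 5 were *Gm5424* (*r* = 0.998), *Slc4a4* (0.996), *Chrna4* (0.996), *Cryl1* (0.995), and *Dpep1* (0.995), over n = 8 mice in 2 separate groups. Since the genotypes are separate groups, *r* was also taken for the deviations from the genotype means, where it was 0.841, 0.787, 0.854, 0.634, and 0.980 in the same order, given without a test. The highest of these was that of *Dpep1*, a brush border dipeptidase, with the average of the members. Between single members, *r* of the deviations ran from -0.356 (*D630023F18Rik* and *C030005K06Rik*) to 0.765 (*Fam151a* and *Aspa*). The 5 genes were picked by *r* over these same mice, which includes the deviations, so nothing is read from these values. *Gm5424* shares 82.6% of its 36-base sequences with *Ass1*, so its value is uncertain.

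Promoter sequences from RefSeq (GRCm38.p6), 250 bases before to 50 bases after each gene start, were matched for 7 of the 8 members, giving 8 promoters; no entry was matched for *C030005K06Rik*. They were searched on both strands for TGCTGAC, the core arm of a MARE, for TGACTCA, which overlaps the center of the TRE-type MARE, and for the complete TRE-type and CRE-type MAREs. TGCTGAC was present in 2 of the 8 promoters, those of *Clec2h* and *Aspa*, against 4.67% of all 32817 promoters. TGACTCA was present in 1 of the 8, that of *Clec2h*, from base 28 of the gene (the start is base 1), against 5.20% of all promoters. The complete TRE-type MARE was in 1 promoter of the table and the CRE-type in 0, none of a member. In *Clec2h*, TGCTGAC lies 122 bases before the start, on chromosome 6 from 128662263 to 128662269, and in *Aspa* 136 bases before the start, on chromosome 11 from 73324767 to 73324773, in both cases on the strand of the gene. A match in these windows is a description of sequence, and no binding was measured in these data. The 250 bases before the start of both genes are printed 5′ to 3′ on the strand of the gene, with TGCTGAC in capitals, because these are the 2 members that hold it: *Clec2h* at chr6:128662135-128662384 (plus strand), which lies outside the exons of any gene and ends at the base before the gene, and *Aspa* at chr11:73324638-73324887 (minus strand). The start that RefSeq gives for *Aspa* lies 4.96 kb inside the gene as the count table has it, so that this stretch is intronic there. The 2 starts of *Ppp1r16b* lie 1.34 and 1.74 kb inside its gene, and those of *Fam151a* and *Adap2* 0.026 and 0.057 kb inside, while the other 3 members have the same start in both.
Clec2h: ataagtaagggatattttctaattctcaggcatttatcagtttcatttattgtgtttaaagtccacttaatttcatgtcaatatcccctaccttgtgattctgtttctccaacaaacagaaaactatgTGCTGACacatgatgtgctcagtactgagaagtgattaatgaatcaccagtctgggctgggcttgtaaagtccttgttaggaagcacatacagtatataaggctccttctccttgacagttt
Aspa: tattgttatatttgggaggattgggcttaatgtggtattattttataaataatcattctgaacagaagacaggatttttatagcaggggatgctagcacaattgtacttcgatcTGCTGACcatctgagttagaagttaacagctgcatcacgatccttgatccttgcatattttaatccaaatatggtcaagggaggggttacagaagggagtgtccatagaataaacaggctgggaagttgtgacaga

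The promoters of the members also differed in base composition. *Clec2h* had 0 CpG sites in its 300 bases, at percentile 2.72 of all promoters by observed over expected CpG. *D630023F18Rik* (percentile 18.5), *Fam151a* (24.3), and *Aspa* (26.5) were also in the lower part, *Sectm1b* (45.9) and *Ppp1r16b* (42.2 and 53.8 for its 2 starts, both inside the gene as the count table has it) near the middle, and *Adap2* (64.7, with 18 CpG sites) above it.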

How the data were processed

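The authors deposited raw counts of reads per gene name, made per the file header with featureCounts 2.0.1 (Subread 2.0.2 in the submitters' processing notes) on exons of Ensembl release 102 for GRCm38. Each read of a pair was counted by itself, strand was ignored, and reads on exons of several genes were left out. The study's methods name CLC Genomics Workbench for mapping reads to the mouse genome; whether the alignments behind the deposited counts came from it is not given in the sources used here. From these counts, edgeR 4.0.16 in R 4.3.3 kept 20149 genes (filterByExpr), scaled libraries by TMM, and tested genotype by a robust quasi-likelihood fit with Benjamini-Hochberg adjustment at 0.05. Each library was taken as 1 mouse, which the labels number but do not describe, so that *P* values measure the spread between libraries. CPM are TMM-scaled, and a count of 0 was given a limit of 3 counts. The code was tested on simulated data.

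The members and lists were chosen with earlier results of these data known. The lists were paralogs (and *Acy1*), receptors, N-acetylaspartate metabolism with the *Nat8* family, Arf regulators, protein phosphatase 1 subunits, and markers of kidney cell types, hepatocytes, and tubular injury. Named were *Maf*, the members, their paralogs, every list gene past the threshold, the nearest tested gene on each side, genes within 100 kb past the threshold, and the 5 most alike genes. Further list genes (such as *Slc13a3*, *Arf6*, *Msn*, *Tnfrsf18*, *Lrp2*, *Alb*, and *Serpina1a*) and *Gm11793* were named after their values were seen. Shared 36-base sequences were counted in GENCODE M21 transcripts.

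The alternatives tried were limma-trend on quantile-normalized values (limma 3.58.1), upper-quartile or RLE factors, edgeR's exact test, DESeq2 1.42.0, a replicate block, filters of at least 10 counts in every mouse or 1 count in any, *Xist* as a covariate, only mice with high *Xist*, no mitochondrial or ribosomal RNA genes, an adjusted *P* under 0.01, windows of other sizes, and each mouse left out.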

Additional observations from a re-analysis of the deposited data

Results flagged for a closer look

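Within each genotype, a mouse was taken to stand apart where its gap to the nearest of the other 3 was large against the range of the group (Dixon's criterion). This was the case in 19 of 142 groups over 71 genes, and chance alone gives it in about 1 in 20 groups. Some of these genes were named after their values were seen. Among the members, it held for *Aspa*, which was at 17.9 CPM in knockout mouse 4 and at 21.6 to 22.4 CPM in the others of that genotype. *Tnfaip8*, which spans *C030005K06Rik*, was at 49.6 CPM in that same mouse against 74.9 to 77.8 CPM. Knockout mouse 1 stood apart above the others for *Acy3* (892 CPM against 201 to 243 CPM), *Nat8* (116 CPM against 59.2 to 65.2 CPM), *Slc7a13* (204 CPM against 0.411 to 0.812 CPM), *Acsm3* (545 CPM against 4.21 to 6.82 CPM), *Cyp7b1* (97.8 CPM against 1.66 to 2.44 CPM), and *Cyp2e1* (1398 CPM against 127 to 134 CPM). It stood apart below them for *Ezr* (240.5 CPM against 297 to 308 CPM), *Slc13a3* (193 CPM against 359.8 to 386 CPM), *Lrp2* (4466 CPM against 7183 to 7709.8 CPM), *Slc22a8* (31.9 CPM against 249.97 to 296 CPM), and *Serpina1a* (1.42 CPM against 9.96 to 14.5 CPM). Control mouse 2 stood apart for *Lrp2* (8602 CPM against 7165 to 7292 CPM), and control mouse 4 for *Nat8f3* (6.63 CPM against 4.26 to 4.46 CPM) and *Msn* (197 CPM against 171 to 174 CPM). Control mouse 3 stood apart for *Ezr* (341 CPM against 423 to 438 CPM), *Kdr* (120.5 CPM against 105 to 107 CPM), and *Ttr* (67.8 CPM against 31.5 to 33.5 CPM). Knockout mouse 1 and control mice 3 and 4 are the 3 mice with low *Xist*. Knockout mouse 1 also had the highest share of mitochondrial counts, 32.3%. The part of either in these values was not tested.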

How the results depend on the processing

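The log2 fold changes of the members moved by less than the spread between replicates in 155 of 157 alternatives, and none changed sign. The exceptions were *Adap2* over the mice with high *Xist* alone (-1.49) and *Clec2h* without knockout mouse 2; leaving out single mice moved *Clec2h* between -6.78 and -5.45. With at least 10 counts in every mouse, *Clec2h*, *Sectm1b*, *D630023F18Rik*, *Sectm1a*, *Ttr*, *Serpina1b*, *Slc7a13*, *Gm11793*, and *Gm12328* gave no value. Of the 1191 alternatives for *Maf*, paralogs, neighbors, and list genes named with a fold change or a call, 1023 kept direction and side of the threshold, 60 lost the call, 58 gained it, and 50 changed sign. Of the last, 1 passed, *Nat8* over the mice with high *Xist* (0.66); *Nat8* was also 0.013 with upper-quartile factors, 0.16 with quantile normalization, 0.082 with the replicate block, and 0.42 with the *Xist* covariate. With the *Xist* covariate, *Clec2d* was -0.10, *Gm7329* 0.061, and *Acsm3* 0.66. Over the mice with high *Xist*, *Ppp1r16a* was 0.065, *Csnk1d* 0.036, *Dmxl1* -0.10, *Gm12328* 0.13, and *Acsm3* 1.01. With upper-quartile factors, *Csnk1d* was 0.037 and *Cubn* 0.0095, and with quantile normalization *Csnk1d* was 0.053, *Cubn* 0.17, and *Lrp2* 0.055. With single mice left out, *Clec2d* ran from -0.071 to 0.22, *Adap1* from -0.15 to 0.13, *Csnk1d* from -0.036 to 0.015, *Gm7329* from -0.90 to 0.16, *Dmxl1* from -0.013 to 0.064, *Mroh7* from -0.036 to 0.41, *Dhx35* from -0.037 to 0.036, *Nat8* from -0.32 to 0.26, *Nat8f2* from -0.36 to 0.48, *Nat8f5* from -0.31 to 0.60, *Cubn* from -0.071 to 0.012, *Slc5a8* from -0.088 to 0.43, *Cyp2e1* from -1.13 to 1.33, and *Acsm3* from -5.34 to 0.11.

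Over all genes, 318 lower genes became 567 with DESeq2, 905 with the *Xist* covariate, 144 at an adjusted *P* under 0.01, and 188 to 310 with single mice left out. The 118 higher genes became 252 with edgeR's exact test, 319 with DESeq2, 191 with at least 1 count in any mouse, 601 with the *Xist* covariate, 322 with high *Xist* only, 36 at an adjusted *P* under 0.01, and 51 to 142 with single mice left out. Genes called by *Xist* level numbered 1328 to 2351 with single mice left out, against 2462. The cause was not tested, other than a stricter threshold and fewer mice by construction.

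Paralogs, with *Acy1* counted among them, called lower numbered 0 with at least 10 counts in every mouse, since *Sectm1a* was not tested there, and 2 with the *Xist* covariate or high *Xist* only, against 1. Partner and pathway genes called lower numbered 1 with quantile normalization, 2 with at least 1 count in any mouse, 7 with the *Xist* covariate, and 0 to 4 with single mice left out, against 4. Those called higher numbered 1 with the exact test or DESeq2, 6 with the *Xist* covariate, 5 with high *Xist* only, and 0 to 1 with single mice left out, against 0. Marker genes called lower numbered 9 with the *Xist* covariate and 3 to 5 with single mice left out, against 5. Those called higher numbered 1 with upper-quartile factors, quantile normalization, DESeq2, at least 1 count in any mouse, or no mitochondrial and ribosomal RNA genes, 2 with the exact test, 4 with the *Xist* covariate or high *Xist* only, and 0 to 1 with single mice left out, against 0. Neighbors called lower numbered 3 to 6, against 4.

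With the replicate number as a block (replicate block), 111 genes were lower and 18 higher, with 0 partner genes and 3 marker genes lower; 127 of its 129 genes were among the 436 called without it. Mice of the same number did not deviate together (*r* = -0.373, 0.152, -0.110, and -0.331), and not every mouse was most alike to the mouse of its own number. Knockout mouse 1, with low *Xist*, deviated with control mice 3 and 4 (*r* = 0.329 and 0.384), which also had low *Xist*. The *r* values thus hold the split by *Xist* level, so they cannot show whether the numbers pair the mice. At 0 to 28 counts per knockout mouse, the size of the drop of *Clec2h*, *Sectm1b*, and *D630023F18Rik* is limited by depth.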
